A study of Homo sapiens with 9 samples.

Results

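The signal recognition particle (SRP) was followed here through its RNA and its proteins in H1975 cells, a human lung adenocarcinoma line, by RNA-Seq. The members were 10 genes of 61544 in the count files, found by symbol: 5 noncoding RNAs that RNA polymerase III transcribes (RN7SL1, RN7SL2, RN7SK, RMRP and RPPH1) and 5 SRP proteins (SRP9, SRP14, SRP54, SRP68 and SRP72). All 9 libraries came from cells that had received si78, which targets the 3′ untranslated region of GRP78 mRNA by RNA interference, 24 h before a plasmid. For the next 48 h the Vector group carried pcDNA3 without an insert, the WT group carried FLAG-tagged GRP78, and the NLS Mut group carried the same protein with alanine in place of 3 lysines of its nuclear localization signal. Each group had 3 libraries, cells without si78 were not analysed here, and the expression was transient in a single cell line. The comparison of WT with NLS Mut asks what the nuclear localization signal of GRP78 changes, and each comparison with Vector asks what the added protein changes. The noncoding members were chosen by their levels in these same libraries, so that their values are given as a description with no test. The SRP proteins were picked by name as partners of the RNA and were tested. They and the lists below were also chosen with earlier results of these data known, so their tests are not free of that choice.

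SRP is a complex of 1 RNA and 6 proteins that binds the signal peptide of a nascent secretory or membrane protein as it leaves the ribosome, slows its translation and brings the ribosome to the receptor on the endoplasmic reticulum (ER). RN7SL1 encodes its RNA, called 7SL, which folds into an Alu domain, bound by SRP9 and SRP14, and an S domain, bound by SRP19, SRP54, SRP68 and SRP72. RN7SK encodes 7SK RNA, which holds the elongation factor P-TEFb in an inactive complex, RMRP is the RNA of RNase MRP, and RPPH1 is the RNA of RNase P, which trims the 5′ end of tRNA precursors. The genome holds many copies of 7SL that do not make the particle's RNA, and the Alu repeats descend from it, so reads from these loci are often placed at several positions. GRP78 itself is a chaperone of the ER lumen, the compartment into which SRP delivers its cargo.

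The results turn on how far reads from the copies of 7SL can be told apart. RN7SL1, RN7SL2 and RN7SL3 all lie on chromosome 14, RN7SL1 on the plus strand and the other 2 on the minus strand. Each is a single exon of a noncoding RNA, with no intron and no coding part, in GENCODE release 29 on GRCh38. RN7SL2 was 98.7% identical to RN7SL1 over the aligned bases, with 4 substitutions, and RN7SL3 was 97.7% identical, with 7 substitutions. Of the 250 stretches of 50 bases in RN7SL1, 158 also occur in RN7SL2 and 86 in RN7SL3, and 39 (15.6%) occur in none of the other 679 RN7SL entries compared. Of the 150 stretches of 150 bases, 51 (34.0%) occur in RN7SL1 alone among these entries. A 50-base read from most positions of RN7SL1 would thus match another copy as well, and the gene counts hold only reads placed at 1 position.

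The libraries held 17671055 to 27476298 reads counted to genes. Reads outside the gene rows (4 summary lines per file) were 27.6% to 30.7% of all reads, and reads mapped to several places took 6.71% to 9.10%. HSPA5, which encodes GRP78, checked the labels of the Vector group against the others, though its count cannot tell WT from NLS Mut: its level was 358 to 391 CPM (counts per 1000000 counted reads) in the Vector libraries, 5024 to 6137 CPM in WT and 4758 to 5148 CPM in NLS Mut. All 9 epithelial and lung adenocarcinoma markers had reads, of which the surfactant gene SFTPB stayed below 1.1 CPM, and of 6 markers of other cell types the endothelial gene PECAM1 reached 5.73 CPM while CD3E and LYZ had no read. The labels do not say whether the 3 libraries of a group came from separate cultures, so the p-values measure the spread between libraries, which may be technical. In these bulk counts fewer cells that express a gene and less RNA per cell cannot be told apart.

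Of the 5 noncoding members, RN7SL1 alone held reads. RN7SL1 (ENSG00000276168.1) had 171, 279 and 340 reads in Vector libraries 1 to 3. It had 110, 191 and 151 reads in the WT libraries. In NLS Mut it had 620 reads in library 1, 257 in library 2 and 2619 in library 3. All WT libraries lay below all Vector libraries in scaled level, and NLS Mut libraries 1 and 3 stood above the other 7, while NLS Mut 2 lay inside the Vector range.

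Scaled to library size by the trimmed mean of M values (TMM), these counts correspond to 7.89, 10.1 and 12.6 CPM in Vector (10.2 ± 2.34, SD, n = 3). The WT libraries had 4.97, 7.35 and 7.27 CPM (6.53 ± 1.35, SD, n = 3). The NLS Mut libraries had 32.5, 10.1 and 148 CPM (63.6 ± 74.2, SD, n = 3), so that the SD exceeded the mean. Over the 9 libraries the coefficient of variation of RN7SL1 was 173%, against 3.78% for SRP14 and 7.12% for SRP9, the protein pair that binds the Alu domain of this RNA.

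The fitted log2 ratio of RN7SL1 was -3.27 for WT against NLS Mut, and no WT library overlapped with an NLS Mut library. It was -0.65 for WT against Vector, again without overlap, and 2.62 for NLS Mut against Vector, where the groups overlapped. The share of all tested genes without such overlap was not computed. RN7SL1 was chosen by its values, so the lack of overlap is a description only. As a description of scale, the SD between libraries within these groups was 1.37 on the log2 scale for both pairs with NLS Mut and 0.31 for WT and Vector. Without NLS Mut library 3 the ratios to NLS Mut were smaller, at -1.68 for WT against NLS Mut and 1.04 for NLS Mut against Vector. With NLS Mut libraries 1 and 3 both left out, they were -0.62 and -0.02, and the ratio of WT to Vector was -0.64. The size of the NLS Mut level thus rested on these 2 libraries, and library 2 alone was near the Vector level.

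**Figure D1:**
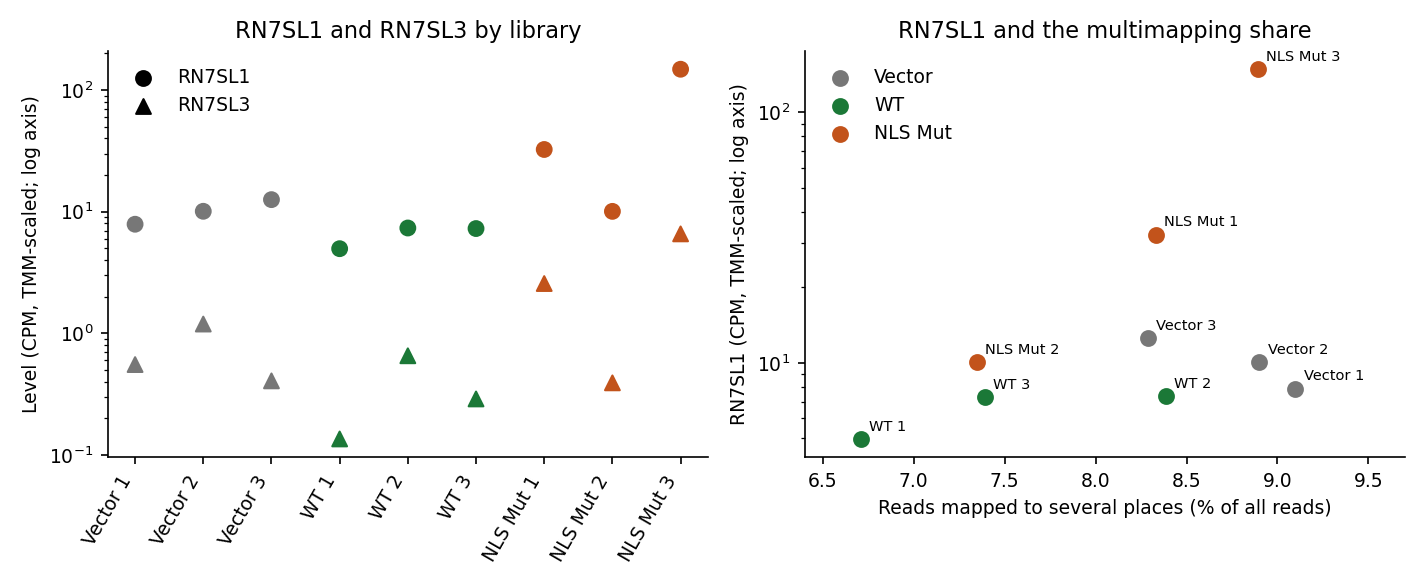
Left, RN7SL1 (circles) and RN7SL3 (triangles) in each of the 9 libraries, in TMM-scaled CPM on a log axis; right, RN7SL1 in the same unit against the share of all reads that mapped to several places. Colours mark the group, and each point is 1 library. NLS Mut 1 and NLS Mut 3, at 32.5 and 148 CPM of RN7SL1, stand above the other libraries, whose multimapping shares span theirs.

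The noncoding RNAs were set beside the share of reads that the aligner placed at several positions. That share was 9.10%, 8.90% and 8.29% in Vector libraries 1 to 3. It was 6.71%, 8.39% and 7.39% in the WT libraries. It was 8.33%, 7.35% and 8.89% in the NLS Mut libraries. NLS Mut 3, with the highest RN7SL1 level, had nearly the same share as Vector 2 and a smaller one than Vector 1. Those 2 libraries had 10.1 and 7.89 CPM of RN7SL1. Within NLS Mut and within WT, the share and RN7SL1 ranked the libraries in the same order. Within Vector the order was opposite. WT 1 was the lowest of the 9 libraries in both. Across the 9 libraries, log2(CPM + 0.5) of RN7SL1 and the share had a Pearson r of 0.46 and a Spearman rho of 0.42, given as a description since RN7SL1 was chosen by its variation. Without WT 1 and NLS Mut 2, the 2 libraries farthest from the median share, r was 0.30 (n = 7). Groups of 3 were too small for a value within each group. This was the only relation of the family of 5 that could be computed, since the other members had no reads.

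Other measures of the libraries moved with RN7SL1 in part. NLS Mut 1 and NLS Mut 3 had the highest unmapped shares, 3.71% and 3.83%, against 3.03% to 3.54% in the other 7 libraries. NLS Mut 3 also had the highest share of reads outside genes, 8.87%, against 7.55% to 8.497% in the other 8. NLS Mut 3 and NLS Mut 1 also had the fewest counted reads, 17671055 and 19095613. The part of these measures in the RN7SL1 level was not tested. On strand, RN7SL1 reads divided almost evenly in NLS Mut 3, with 1312 in the forward and 1307 in the reverse column, as did all counted reads, of which the forward column held 50.6% to 51.9%. The files therefore do not separate 7SL RNA from transcripts of the opposite strand. In GENCODE 29 a noncoding entry (ENSG00000283029) covers all 299 bases of RN7SL1 on the same strand, and it is not among the genes of the count files.

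The members RN7SL2, RN7SK, RMRP and RPPH1 had 0 reads in each of the 9 libraries, in the unstranded column and in both stranded columns. A count of 0 allows up to 3 reads, which is 0.109 to 0.170 CPM per library for counting error only. For RN7SK, an entry of the same RNA (ENSG00000202198) covers all 328 bases on the same strand, was counted as a gene of its own, and also had 0 reads. RMRP is present under 2 identifiers that share 264 bases on the same strand, and both had 0 reads. RPPH1, 333 bases long, lies wholly within exons of another entry of the same strand (ENSG00000259001), which had 0 unstranded reads. The shared 158 stretches of RN7SL2 are given above. Reads that overlapped more than 1 gene were set aside in a summary line, which held 9.12% to 9.81% of all reads per library. The limit of 3 reads therefore does not cover reads over the bases that RN7SK, RMRP and RPPH1 share with other counted genes. By the GENCODE 29 positions, all bases of RN7SK, of RPPH1 and of the RMRP entry of 264 bases are shared in this way. Reads over them would fall in that line whatever their number, so these zeros carry no information on level. The other RMRP entry has 268 bases, of which 264 are shared. The part of shared sequence in the zero of RN7SL2 was not tested, and its value bounds the counted reads, not the amount of this RNA in the cells. The label of a group of polymerase III RNAs thus rests on RN7SL1 alone in these files.

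RN7SL3 and RN7SL4P, which share stretches of 50 bases with RN7SL1, were highest in the same 2 libraries, while RN7SL2, the most similar copy, had no reads. RN7SL3, a further copy with the same annotated type as RN7SL1 and RN7SL2, had 0.55, 1.19 and 0.41 CPM in Vector, 0.14, 0.65 and 0.29 CPM in WT, and 2.57, 0.39 and 6.57 CPM in NLS Mut. It was highest in NLS Mut 3 and next in NLS Mut 1, as RN7SL1 was, and its reads were 2.73% to 11.8% of the RN7SL1 reads of a library. RN7SL4P, an annotated pseudogene named here after its values were seen, had 23 reads in NLS Mut 1 and 45 in NLS Mut 3, against 0 to 11 in the other 7 libraries. It shares 84 of the 250 stretches of 50 bases with RN7SL1, and RN7SL5P, which shares 160, had 11 reads in all. The other 2 copies that shared such a stretch and had reads, RN7SL128P and RN7SL752P, had 8 and 2 reads in all.

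The more distant copies differed among themselves in pattern. Some at low levels, also without a shared stretch of 50 bases, were highest in NLS Mut 3 and NLS Mut 1. RN7SL481P had 0.74 and 0.68 CPM there, against at most 0.46 CPM in the other 7 libraries. RN7SL368P had 0.51 and 0.47 CPM, against at most 0.43 CPM. Others did not follow RN7SL1. RN7SL834P, 75.0% identical to RN7SL1 and with no shared stretch of 50 bases, had 1.29, 1.23 and 1.85 CPM in Vector, 2.62, 1.31 and 1.73 CPM in WT, and 1.47, 0.98 and 0.45 CPM in NLS Mut, with its lowest value in NLS Mut 3. Of the 677 annotated RN7SL pseudogenes, 249 had at least 1 read. Their summed level was 22.4 to 24.1 CPM in Vector, 18.3 to 26.3 in WT and 18.6 to 29.7 in NLS Mut, so that it ranged over far less than RN7SL1 did. Without RN7SL4P and RN7SL5P the sum was 26.8 CPM in NLS Mut 3 and 26.2 CPM in WT 3. Copies of other polymerase III RNAs also ranged less than RN7SL1: the summed U6 pseudogenes had 25.9 to 33.3 CPM and the summed RN7SK pseudogenes 9.16 to 14.2 CPM over the 9 libraries, with NLS Mut 3 at 31.2 and 12.9 CPM.

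**Figure D2:**
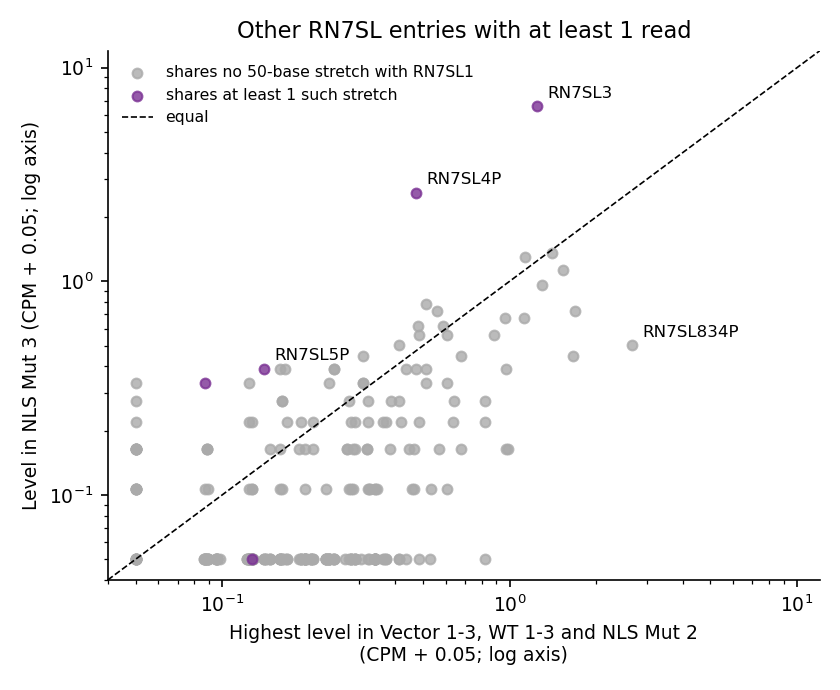
Each point is an annotated RN7SL entry other than RN7SL1 with at least 1 read, with its level in NLS Mut 3 against its highest level in the 3 Vector libraries, the 3 WT libraries and NLS Mut 2, both in CPM with a small constant added, on log axes; the dashed line marks equal levels. RN7SL3 (6.57 against 1.19 CPM) and RN7SL4P (2.55 against 0.42 CPM), which share stretches of 50 bases with RN7SL1 (purple), lie above the line with the highest levels in NLS Mut 3, and RN7SL834P (0.45 against 2.62 CPM) lies below it.

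Other short structured RNAs were scarce. Of 16 further RNAs of polymerase III (U6, Y, vault and related RNAs), 15 were in the files and 7 had a read, and only RN7SL3 averaged 1 CPM or more. BCYRN1, a primate RNA related to Alu, averaged 0.77 CPM, with 0.51, 1.08 and 1.48 CPM in Vector, 0.45, 1.00 and 0.72 CPM in WT, and 0.63, 0.47 and 0.62 CPM in NLS Mut, and NLS Mut 1 and 3 did not stand apart for it. Of 28 short structured RNAs of polymerase II, 8 had a read and none averaged 1 CPM. Of 55 replication-dependent histone genes, whose mRNAs typically end without a poly(A) tail, 54 had reads and 24 averaged 1 CPM or more. Their sums were 324 to 335 CPM in Vector, 312 to 332 in WT and 284 to 301 in NLS Mut. H2AC6 (77.4 CPM over the 9 libraries) and H2BC5 (51.8 CPM) led them, with annotated exon lengths of 1668 and 871 bases. Whether the counted histone transcripts carried a tail was not tested. Of the ribosomal RNAs, the mitochondrial MT-RNR2 averaged 12298 CPM and MT-RNR1 1713 CPM, and the highest MT-RNR1 values were in Vector 1 (2195 CPM) and WT 2 (1993 CPM), not in NLS Mut 1 (1778 CPM) or NLS Mut 3 (1752 CPM).

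By pattern over the 9 libraries, the genes most like RN7SL1 among the 15041 genes ranked (those averaging 1 CPM or more) were RN7SL3 (Pearson r = 0.95), XPO6 (0.93), HMGB1P10 (0.91), RNF4 (0.91), RAB42 (0.87), TTC23L-AS1 (0.86), ATP6V0A2 (0.86), ZNF573 (0.86), PVT1 (0.86) and NAT10 (0.86). The measure was taken on log2(CPM + 0.5), all points share the libraries and their scaling, and NLS Mut 1 and 3 weigh on each value. Apart from RN7SL3, the likeness is one of pattern and not of size: XPO6, an exportin, had 201 to 207 CPM in Vector, 198 to 202 in WT and 226, 215 and 234 CPM in NLS Mut. RNF4, a ubiquitin ligase, had 77.5 to 82.0 CPM in Vector, 76.3 to 79.6 in WT and 86.5, 83.8 and 89.3 CPM in NLS Mut. Of the SRP proteins and receptor subunits, SRPRB had an r of 0.68 with RN7SL1, SRP72 0.64, SRP68 0.42, SRPRA 0.24 and SRP19 0.12, and SRP14, SRP9 and SRP54 lay at -0.03, -0.07 and -0.08. By Spearman rho the order differed: SRP68 had 0.77, SRPRB 0.73, SRPRA 0.43, SRP72 0.42 and SRP19 0.15. SRP14, SRP54 and SRP9 had a rho of -0.30, -0.38 and -0.52. By r, 98.1% of the ranked genes lay below SRPRB, 97.0% below SRP72 and 85.6% below SRP68. The share was 71.3% for SRPRA, 59.5% for SRP19, 44.1% for SRP14, 40.5% for SRP9 and 39.7% for SRP54. All these values are descriptions over 9 libraries.

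The messages of the SRP proteins were abundant and even across the libraries. Counted per kilobase of exon, SRP9 had 121 CPM, SRP14 62.8, SRP72 24.8, SRP54 23.4 and SRP68 14.7, as means over the 9 libraries. SRP19, the sixth protein of the particle, was at 1.17 CPM per kilobase on the same scale, with an annotated exon length of 10517 bases. The receptor subunits SRPRA and SRPRB had 45.9 and 19.2 CPM per kilobase. The summed level of the 5 SRP protein members was 661 to 707 CPM in Vector, 697 to 706 in WT and 696 to 723 in NLS Mut, and NLS Mut 1 and 3 did not stand apart.

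None of the 8 genes for SRP proteins and receptor subunits passed edgeR's quasi-likelihood test at an adjusted p of 0.05 in any of the 3 comparisons, and none passed in DESeq2. Among the 18653 genes tested by edgeR, 0.504% passed for WT against NLS Mut, 0.558% for WT against Vector and 0.793% for NLS Mut against Vector. DESeq2 called 2.62%, 2.31% and 3.97% of the genes to which it gave an adjusted p in the same comparisons. At an unadjusted p under 0.05, edgeR had 0 of the 8 genes for WT against NLS Mut (background 11.6%), 1 for WT against Vector (11.7%) and 0 for NLS Mut against Vector (12.2%). The median log2 fold change of the 8 was -0.08, -0.03 and 0.03 in these comparisons, beside -0.005, -0.002 and -0.002 over all genes tested.

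The Alu domain pair was led by SRP9. SRP9 had 217, 183 and 189 CPM in Vector, 209, 224 and 224 CPM in WT, and 206, 220 and 213 CPM in NLS Mut. Vector 1 lay within the range of the other groups, and Vector 2 and 3 lay below all 6 other libraries. Its log2 fold change for WT against Vector was 0.16 (95% interval 0.03 to 0.29, edgeR adjusted p = 0.2999), the unadjusted call above. Without Vector library 1 it passed, at 0.24 for WT against Vector (edgeR adjusted p = 0.00509) and 0.19 for NLS Mut against Vector (edgeR adjusted p = 0.0340), so the call depended on that library. In that fit 6.33% and 5.04% of all genes tested were called in these comparisons. SRP14 had 123, 127 and 118 CPM in Vector, 131, 124 and 134 CPM in WT, and 124, 124 and 129 CPM in NLS Mut, with overlapping groups. Its log2 fold change was 0.05 for WT against NLS Mut (95% interval -0.08 to 0.18).

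The proteins of the S domain include the subunit that reads the signal peptide. SRP54, the GTPase that binds it, had 92.3, 92.9 and 84.2 CPM in Vector, 93.9, 86.5 and 95.3 CPM in WT, and 87.9, 95.02 and 92.9 CPM in NLS Mut. Its groups overlapped in every comparison, and its log2 fold change for WT against NLS Mut was -0.002 (95% interval -0.14 to 0.14). SRP68 and SRP72 bind 7SL RNA as a pair. SRP68 had 105, 121 and 117 CPM in Vector, 107, 112 and 102 CPM in WT, and 115, 115 and 115 CPM in NLS Mut. SRP72 had 169, 152 and 152 CPM in Vector, 156, 156 and 151 CPM in WT, and 163, 164 and 173 CPM in NLS Mut. For both genes the WT libraries lay below the NLS Mut libraries without overlap, by 0.10 for SRP68 (log2 fold change -0.10, 95% interval -0.24 to 0.04, edgeR adjusted p = 0.612) and by 0.11 for SRP72 (-0.11, 95% interval -0.24 to 0.01, edgeR adjusted p = 0.497). Neither difference passed the test, and the share of all tested genes without such overlap was not computed, here or for the genes below.

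SRP19, which prepares the RNA for SRP54, was the least abundant, with 15.4, 11.6 and 13.2 CPM in Vector, 9.53, 12.3 and 12.5 CPM in WT, and 12.5, 11.4 and 12.1 CPM in NLS Mut. Its interval was the widest of the 8 for WT against NLS Mut, from -0.37 to 0.24, and it shares 1470 exonic bases with the pseudogene ZRSR2P1. Of the receptor subunits, SRPRA had 189, 196 and 198 CPM in Vector, 186, 186 and 179 CPM in WT, and 184, 206 and 196 CPM in NLS Mut. Its WT libraries lay below the Vector libraries without overlap, at a log2 fold change of -0.08 (95% interval -0.20 to 0.04, edgeR adjusted p = 0.627). SRPRB, the subunit that anchors the receptor in the ER membrane, had 79.7, 79.9 and 81.0 CPM in Vector, 70.9, 84.7 and 78.3 CPM in WT, and 81.6, 80.1 and 87.5 CPM in NLS Mut, and its groups overlapped.

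**Figure D3:**
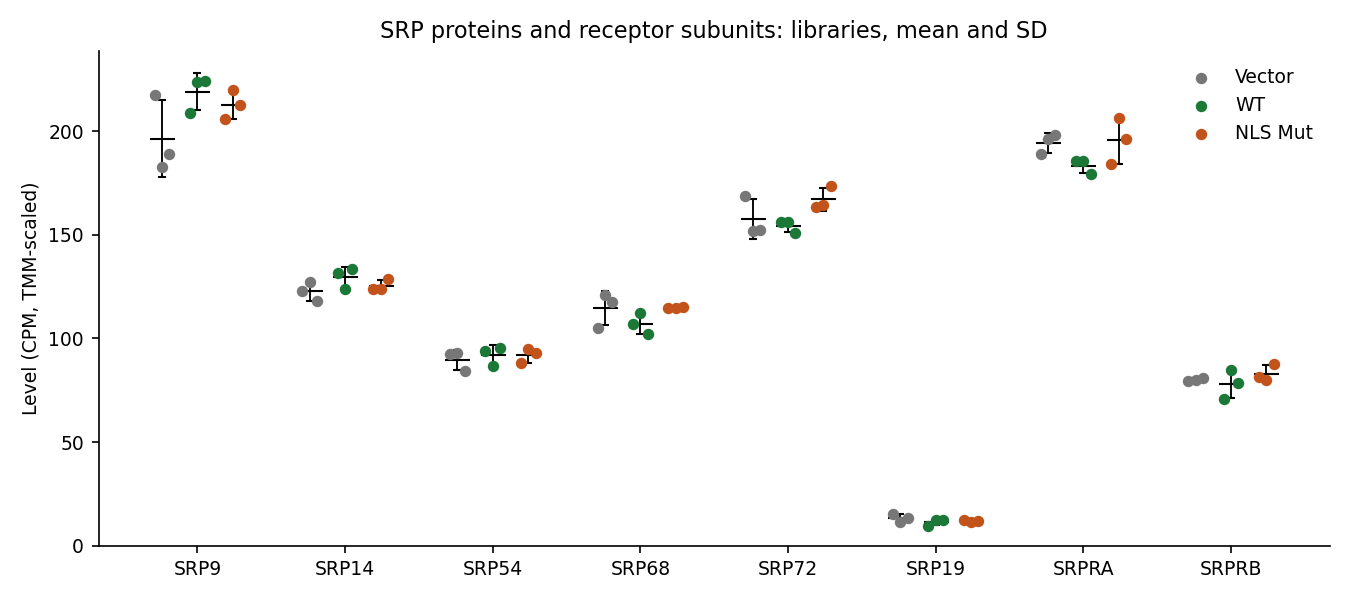
Levels of the 6 SRP proteins and 2 receptor subunits in each library, in TMM-scaled CPM, with the mean and SD of each group of 3 in black; the axis starts at 0. The libraries of the 3 groups lie close together for every gene, and Vector 1 (217 CPM) sits above Vector 2 and 3 for SRP9.

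**Figure D4:**
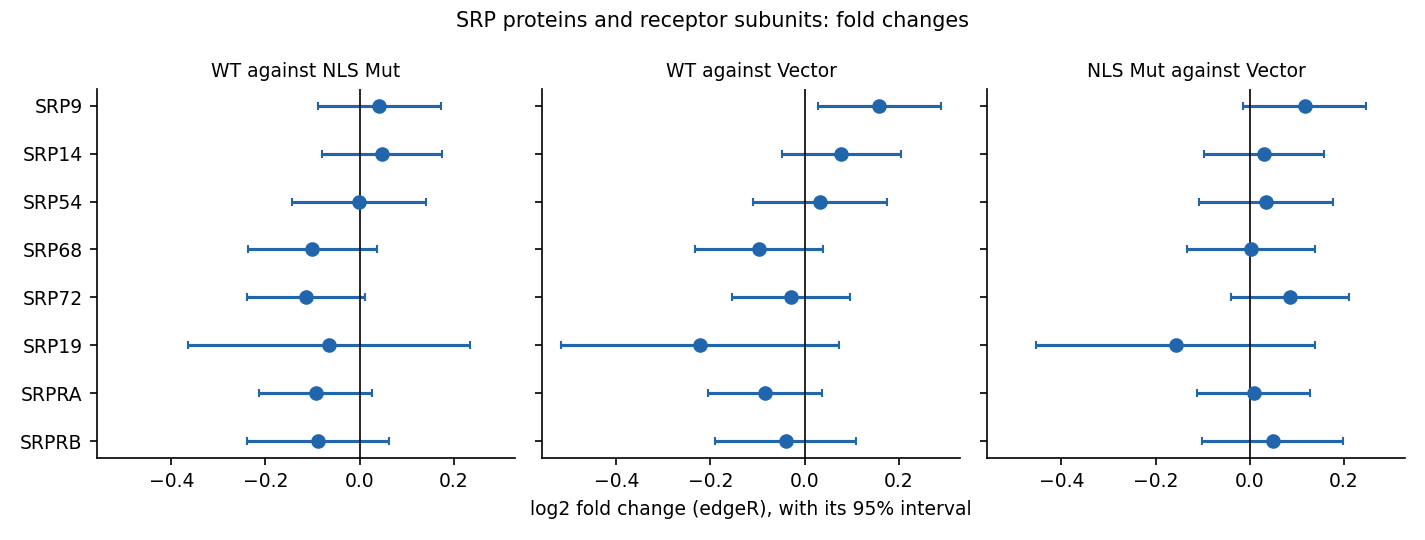
Log2 fold changes of the same 8 genes in the 3 comparisons, as fitted by edgeR, with their 95% intervals as bars. All intervals include 0 but that of SRP9 for WT against Vector, from 0.03 to 0.29, and none of the genes passed at an adjusted p of 0.05.

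Genes whose products work with these RNAs were read from 4 lists of 63 genes in all. The 7SK partners include MEPCE, the enzyme that caps 7SK RNA, and 1 of 7 was called, MEPCE, lower in WT than in Vector. In that comparison 0.558% of all genes tested were called. MEPCE had 8.86, 19.4 and 18.6 CPM in Vector, 9.16, 9.69 and 7.65 CPM in WT, and 11.1, 9.20 and 11.8 CPM in NLS Mut. Vector 1 lay among the WT values, so that the groups overlapped and the difference rested on Vector 2 and 3. The log2 fold change was -0.83 (SE 0.19, edgeR adjusted p = 0.0437). Over 19 alternatives, DESeq2 among them, the adjusted p ranged from 1.09e-05 to 0.396, and 9 of the 19 called it. Of the 9 fits that left out a library, 2 still called it. Those were the fits without Vector 1 and without WT 2, and the call was lost without Vector 2, Vector 3, WT 1, WT 3 or any NLS Mut library. For the 2 comparisons with NLS Mut no gene of the list was called.

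Of the 11 RNase P and MRP proteins, 10 were tested and none was called by edgeR. For WT against NLS Mut all 10 had negative log2 fold changes, from -0.37 to -0.02 with a median of -0.18 beside -0.005 over all genes, and 3 had an unadjusted p under 0.05. Of all genes tested, 51.1% were negative in that comparison and 11.6% had such a p. POP1, the large shared subunit, had 40.1, 41.4 and 42.4 CPM in Vector, 37.4, 42.7 and 42.6 CPM in WT, and 46.4, 50.8 and 48.3 CPM in NLS Mut. RPP25 had 36.5, 53.6 and 52.5 CPM in Vector, 29.5, 41.7 and 39.0 CPM in WT, and 45.4, 38.5 and 45.6 CPM in NLS Mut. POP1 was thus higher in all NLS Mut libraries than in the 6 others, while the RPP25 groups overlapped between WT and NLS Mut. Against Vector, 8 of the 10 were negative in WT (50.5% of all genes) and 7 of 10 positive in NLS Mut (49.7% of all genes).

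RNA polymerase III and its factors, which make these RNAs, held 33 genes, all tested, and edgeR called none. For WT against NLS Mut 22 were negative and 11 positive (median -0.07), beside 51.1% negative over all genes. An unadjusted p under 0.05 was found for 8 that were lower and 1 that was higher, beside 11.6% of all genes in both directions together. GTF3C1 and GTF3C4, subunits of the factor TFIIIC and the most abundant of the list, had 203 to 224 and 139 to 157 CPM in WT against 212 to 225 and 155 to 161 CPM in NLS Mut. For the translocon and its associated proteins, through which the nascent chain enters the ER, 12 of 12 were tested and edgeR called none. SEC61A1, the channel subunit, had 569, 616 and 575 CPM in Vector, 550, 523 and 540 CPM in WT, and 543, 582 and 546 CPM in NLS Mut, and SSR3 had 340 to 365, 335 to 354 and 351 to 374 CPM in these groups.

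DESeq2 called more genes of these lists, and they are named here after its calls were seen. It also called a larger share of all genes. For WT against NLS Mut this share was 2.62%, against 0.504% by edgeR. For WT against Vector it was 2.31% against 0.558%, and for NLS Mut against Vector 3.97% against 0.793%. Of the lists, DESeq2 called 4 genes lower for WT against NLS Mut: POLR3G, a subunit of polymerase III, SNAPC1, a subunit of the factor that acts on the promoters of snRNA and 7SK genes, POP7, a subunit of RNase P and MRP, and SEC62, a translocon protein. POLR3G had 32.4, 32.0 and 32.6 CPM in WT against 45.0, 40.9 and 39.2 CPM in NLS Mut, at a log2 fold change of -0.37 by edgeR (SE 0.10, adjusted p = 0.0743). SNAPC1 had 26.9, 28.4 and 27.4 CPM in WT against 37.9, 33.0 and 36.0 CPM in NLS Mut, at -0.37 (SE 0.10, edgeR adjusted p = 0.0731). For each of the 4 genes the WT and NLS Mut libraries did not overlap, which adds no support, since the same values led to the calls. DESeq2 also called MEPCE and SNAPC4 lower for WT against Vector and POLR3G higher for NLS Mut against Vector, where POLR3G had 37.1, 32.0 and 29.8 CPM in Vector. Vector, WT and NLS Mut libraries enter 2 comparisons each, so the comparisons are not independent.

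**Figure D5:**
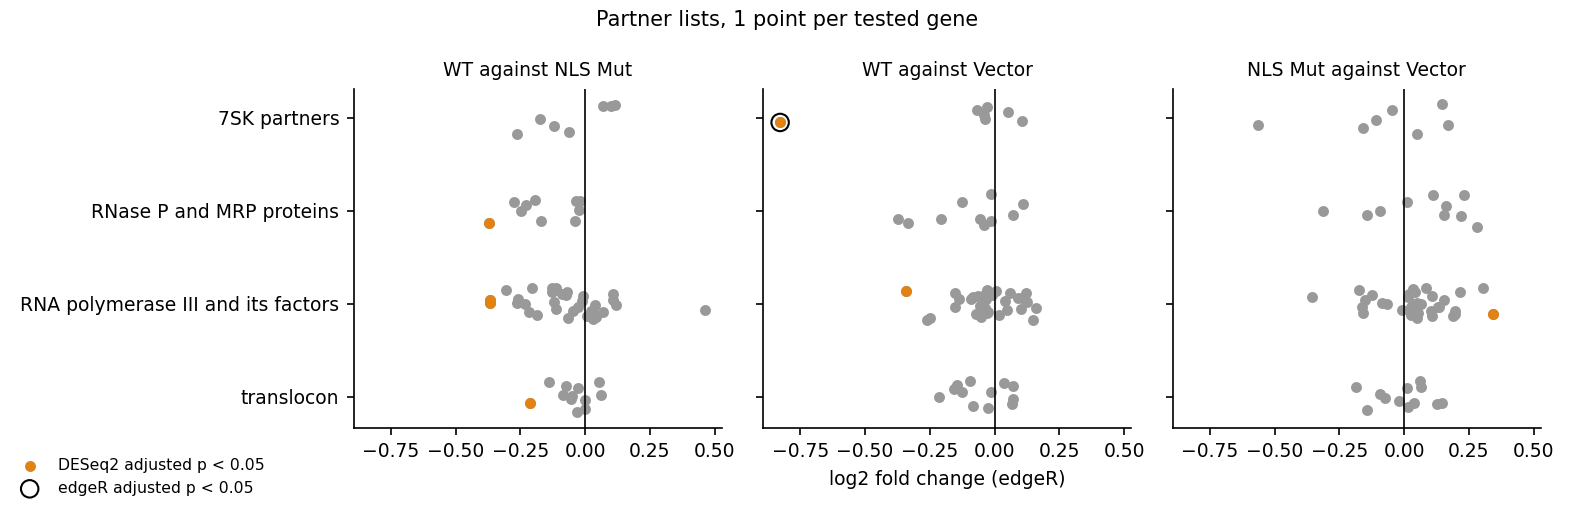
Log2 fold changes by edgeR of each tested gene of the 4 lists, in the 3 comparisons, with a vertical scatter within each row that carries no value. Open circles mark edgeR's calls (MEPCE, at -0.83 for WT against Vector) and orange points mark DESeq2's 4, 2 and 1 calls.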

How the data were processed

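Total RNA of H1975 cells was sequenced in 9 libraries. The deposited files hold unnormalized read counts per gene, in the layout of the STAR aligner, with reads placed at 1 position counted once without regard to strand and once for each strand. The submitters' processing notes name STAR 2.7.9a, DESeq2 1.36.0 and GRCh38.p14, and the annotation release and the library kit are not given in the sources used here. The unstranded column was used, without its 4 summary lines. Symbols were matched by Ensembl identifier, and coordinates and sequences came from GENCODE release 29 (GRCh38), in which 58342 of 61544 genes were found.

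All 9 libraries entered 1 fit in edgeR 4.0.16 (R 4.3.3), with TMM scaling, the filterByExpr filter (18653 genes kept), the quasi-likelihood test and Benjamini-Hochberg adjustment over all genes tested at 0.05. DESeq2 1.42.0 was the alternative test, and the fit was tested on simulated data. CPM values are TMM-scaled. Sequences were aligned with Biopython 1.88 and correlations computed with scipy 1.17.1. The permutation test planned for RN7SL1 and the multimapping share is not reported, because RN7SL1 was chosen by its values. Named genes were the 10 members, list members called by edgeR or else the 2 most abundant of a list, RN7SL copies and other noncoding RNAs averaging at least 1 CPM, and the 10 genes most like RN7SL1 in pattern. The members and lists were chosen with earlier results of these data known. Libraries of 1 group differed by more than sampling noise (chi-square per degree of freedom 3.50 to 11.3), so all 9 were kept as separate samples. Intervals and limits on a count of 0 cover the counts only, and 3 libraries per group limit what could be detected. Promoters of the noncoding members were not analysed here. The sequences of the RN7SL genes are not reported here.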

Additional observations from a re-analysis of the deposited data

How the results depend on the processing

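Of 456 values of single SRP genes under the alternatives, 454 stayed on the same side of the threshold, and the exceptions were SRP9 without Vector replicate 1. Leaving out 1 library at a time gave 0 to 1 called SRP genes for each comparison with Vector and 0 for WT against NLS Mut, and 0 to 4, 0 to 8 and 0 to 5 called genes of the 4 partner lists for WT against NLS Mut, WT against Vector and NLS Mut against Vector, with the highest number without Vector replicate 1 in each, a fit that called 1.95%, 6.33% and 5.04% of all genes against 0.504%, 0.558% and 0.793% in the report. The counts for the partner lists in these comparisons were 0, 1 and 0 in the report. They were 4, 2 and 1 with DESeq2 (2.62%, 2.31% and 3.97% of all genes) and 2, 3 and 1 with no filter on low counts (0.628%, 0.806% and 0.670%). For WT against NLS Mut they were 4 with only the 2 groups compared (1.80% of all genes called) and 4 with the correction for GC content and length (2.36%). For WT against Vector they were 2 with scaling by library size alone (0.756% of all genes), 0 with the sum of both strands (0.512%) and 0 with only the 2 groups compared (0.144%). The cause was not tested.

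The replicate numbers gave no clear pairing of the libraries. Same-numbered libraries of different groups had correlated deviations of -0.03 to 0.13, against -0.14 to 0.10 for the other pairs. With 3 libraries per group, these values cannot exclude a pairing. With the replicate block, 2 partner genes were called for WT against NLS Mut and 2 for WT against Vector. In that fit 1.14% and 1.24% of all genes were called, against 0.504% and 0.558% without the block. There 0 SRP genes were called in each comparison, and the RN7SL1 ratios were -2.77, -0.61 and 2.16.

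The RN7SL1 ratio ranged over the fits that left out 1 library from -3.78 to -1.68 for WT against NLS Mut, from -0.79 to -0.47 for WT against Vector and from 1.04 to 3.13 for NLS Mut against Vector. Without NLS Mut 1 and 3, chosen after seeing the data, it was -0.62 for WT against NLS Mut and turned to -0.021 for NLS Mut against Vector, and 0 partner genes were called for WT against Vector. Summing RN7SL1 with RN7SL3, RN7SL4P and RN7SL5P, also added after seeing the data, left these ratios within the spread between libraries. The 3 added entries held 257, 88 and 11 reads against 4738 of RN7SL1, so the sum could move the ratios little and does not test them. The Pearson r of RN7SL1 with the multimapping share, a description, ranged from 0.30 to 0.61 over the settings run, with 0.61 without Vector replicate 1. At 3 libraries per group and a spread as wide as that of NLS Mut, the level of RN7SL1 there is known only roughly.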
